A study of Caenorhabditis elegans with 2 samples.

Results

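The peaks described here are sites of EFL-1 that lie inside protein-coding genes of Caenorhabditis elegans but away from the annotated starts of protein-coding transcripts. A peak was taken when its summit fell inside a protein-coding gene and more than 500 bp from the start site of every protein-coding transcript. Summits within 200 bp of the start of a tRNA, snoRNA, snRNA or miRNA gene were left out. This left 299 peaks of the 2802 that the authors' thresholded list, called optimal, placed on nuclear chromosomes, or 10.7% (exact 95% interval 9.55 to 11.9%). Of the others, 1803 had their summit within 500 bp of a start site and are called promoter peaks, 617 lay between genes, and 83 were those left out near small RNA genes. The choice used positions alone and no signal value.

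EFL-1 is one of the worm's E2F transcription factors. E2F proteins pair with a DP protein to bind DNA (in the worm this is DPL-1) and are best known from promoters of genes for the cell cycle, DNA synthesis and, in the worm germ line, for making oocytes and early embryos. With the retinoblastoma-like protein LIN-35 they form part of DREAM, a complex that represses transcription, and E2F proteins recognise a core sequence that ends in a run of C and G.

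The samples were whole young adult hermaphrodites of the strain YL478, in which EFL-1 is expressed from a transgene with GFP-FLAG at its C terminus, and sonicated chromatin was immunoprecipitated through GFP. They form a single group of 2 biological replicates with no second condition, so the design gives a description of the sites and of how far the replicates differ. Whole animals were used, so the tissue in which a site is bound cannot be told from these lists, and worms without the tagged protein were not analysed here. Signal values are the authors' own, one per peak, on a scale that the sources used here do not give. They serve to rank peaks within a list, the read depth behind them is unknown, and replicate values come from lists that were called separately. The joint call that gave the 299 peaks includes both replicates, so replicate values are parts of the same data and not an independent check. Intervals below cover counting error only, and neighbouring peaks are not independent.

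The first sequences below were chosen because they hold an E2F core sequence, from intron peaks with signals between 139 and 275, to show where it lies at such summits. Most intron peaks, including strong ones in pals-1, hxk-1 and lea-1, held none within 100 bp. Windows are 101 bp long and centred on the summit. Each shows the plus strand of build ce11, 5′ to 3′, read from the RefSeq genome sequence. Capitals mark copies of the E2F core sequence TTSSCGC, where S stands for C or G, found on the printed strand or, read in reverse complement, on the other one. In the D1044.6 window 2 copies on opposite strands overlap.
lron-13 chrIII:13530123-13530223 (+): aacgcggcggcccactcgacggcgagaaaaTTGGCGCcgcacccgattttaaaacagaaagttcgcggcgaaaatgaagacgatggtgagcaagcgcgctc
ptpn-22 chrIV:1738416-1738516 (+): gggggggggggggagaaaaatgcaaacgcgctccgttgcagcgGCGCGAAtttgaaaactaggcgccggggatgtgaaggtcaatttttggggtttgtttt
mbk-2 chrIV:13029136-13029236 (+): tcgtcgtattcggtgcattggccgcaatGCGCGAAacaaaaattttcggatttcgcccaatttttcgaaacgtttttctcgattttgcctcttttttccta
vha-11 chrIV:2311678-2311778 (+): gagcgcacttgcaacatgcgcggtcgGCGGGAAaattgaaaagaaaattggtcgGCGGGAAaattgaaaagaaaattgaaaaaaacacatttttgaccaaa
ari-1.4 chrIV:15526634-15526734 (+): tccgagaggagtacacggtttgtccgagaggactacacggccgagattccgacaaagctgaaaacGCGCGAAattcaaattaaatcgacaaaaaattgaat
Y53F4B.12 chrII:15025262-15025362 (+): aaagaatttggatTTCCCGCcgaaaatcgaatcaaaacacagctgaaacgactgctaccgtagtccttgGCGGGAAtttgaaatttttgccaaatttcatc
skn-1 chrIV:5657141-5657241 (+): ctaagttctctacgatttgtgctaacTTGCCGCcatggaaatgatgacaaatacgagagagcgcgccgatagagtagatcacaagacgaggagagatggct
R02F2.1 chrIII:5503806-5503906 (+): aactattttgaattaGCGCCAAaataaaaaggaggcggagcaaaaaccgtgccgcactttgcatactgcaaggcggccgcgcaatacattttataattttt
D1044.6 chrIII:5541958-5542058 (+): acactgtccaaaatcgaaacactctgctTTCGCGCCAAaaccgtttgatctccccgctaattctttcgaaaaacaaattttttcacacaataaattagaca

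The next windows belong to 3 of the strongest intron sites, with signals from 256 to 1343, and hold no copy of that sequence on either strand.
klp-7 chrIII:10807366-10807466 (+): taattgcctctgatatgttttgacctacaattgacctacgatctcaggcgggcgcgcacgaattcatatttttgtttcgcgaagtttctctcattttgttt
Y62F5A.9 chrII:11537334-11537434 (+): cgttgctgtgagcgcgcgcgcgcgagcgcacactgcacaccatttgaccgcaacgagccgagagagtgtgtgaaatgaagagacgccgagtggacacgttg
ret-1 chrV:14835502-14835602 (+): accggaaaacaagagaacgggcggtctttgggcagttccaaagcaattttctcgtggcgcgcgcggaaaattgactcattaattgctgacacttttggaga

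The strongest gene body site by far lay in klp-7, the gene of a kinesin that takes microtubules apart. Its peak at chrIII:10807243-10807584 had a signal of 1343 and ranked 23 among the 2802 nuclear peaks. It had a value of 750 in replicate 1 and 587 in replicate 2. The summit was in the first intron, 925 bp upstream of an annotated internal start of klp-7, and klp-7 had no promoter peak. The next site, at chrII:11537230-11537563 in an intron of Y62F5A.9, had a signal of 655, with 278 in replicate 1 and 376 in replicate 2. Its summit was 143 bp from the start of the annotated non-coding RNA gene Y62F5A.16, and the 201 bp around it were 60.7% G and C against a median of 37.3% over all gene body peaks. The same summit was 224 bp from the nearest tRNA, snoRNA, snRNA or miRNA gene start, just outside the limit of 200 bp. Of all gene body summits, 6 lay 200 to 500 bp from such a start. The third in rank, in the 5′ UTR of C34C12.2, followed at a distance with 282 (147 and 135 in replicates 1 and 2).

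Below these came a range of hosts, most of them in introns. Values were 275 in lron-13, which encodes a leucine-rich repeat protein, 257 in ptpn-22, a protein tyrosine phosphatase gene, and 256 in ret-1, the reticulon gene. The replicate values were 140 and 144 for lron-13, 128 and 134 for ptpn-22, and 120 and 132 for ret-1, so these sites differed little between replicates. The mbk-2 gene, for a kinase that acts when the oocyte becomes an embryo, had an intron peak of 242, with 141 and 102 in replicates 1 and 2. The hexokinase gene hxk-1 had an intron peak of 236, with 107 and 134 in replicates 1 and 2. An intron peak in vha-11, a subunit gene of the proton pump V-ATPase, had 227, with 129 and 96.8 in replicates 1 and 2. Further intron peaks among the 25 strongest were in pals-1 (244), ari-1.4 (219), Y53F4B.12 (208), W08E3.4 (204), lea-1 (198), rhgf-3 (198), T27F6.6 (187), C44B9.2 (184), mask-1 (174) and dyf-2 (164). The same rank range held 4 peaks in 3′ UTRs, which are described with the 3′ ends below. Of the 25, all remained when either replicate list replaced the joint list, and 15 remained when summits within 1000 bp of a start were left out. All 25 were also among the stronger 1401 nuclear peaks, which follows from their choice by signal.

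As a whole the gene body peaks were weaker than promoter peaks. Their signal had a median of 58.9 (quartiles 47.8 and 90.7, range 40.1 to 1343), against 88.2 (quartiles 57.3 and 165) at promoters. The medians of the replicate values were 34.6 and 29.0 for gene body peaks and 51.0 and 41.4 for promoter peaks, so the order was the same in both replicates. When the nuclear list was cut by signal into 4 classes of nearly equal size, the top class held 35 gene body peaks, 11.7% of them, against 30.6% of promoter peaks. The bottom class held 115, or 38.5%, against 20.6%.

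**Figure D1:**
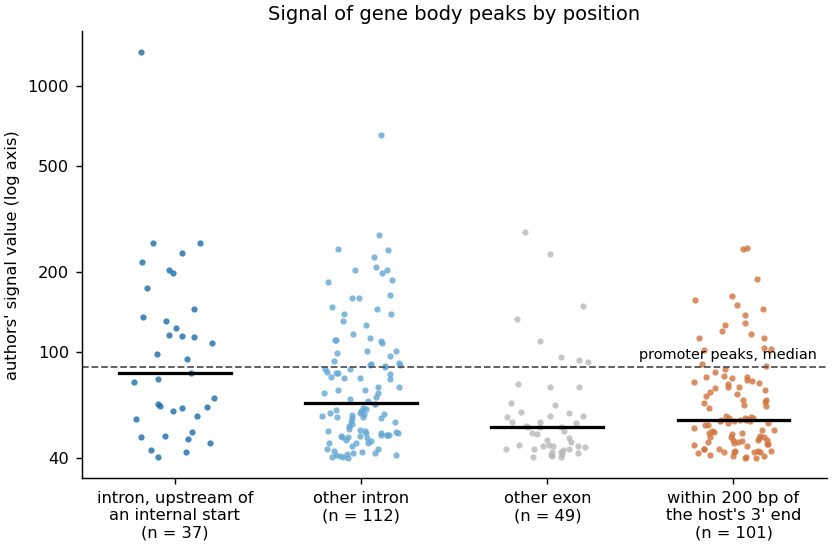
Authors' signal value (log axis) of each of the 299 gene body peaks, in 4 groups by position. Bars are medians (83.8, 64.7, 52.2 and 55.8 from left to right) and the dashed line is the promoter median of 88.2; the klp-7 and Y62F5A.9 peaks stand alone above 500.

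Introns held 152 of the 299 summits, or 50.8% (45.0 to 56.6%), where an exon of any transcript of the gene took precedence over an intron. Another 78 (26.1%, 21.2 to 31.5%) lay in 3′ UTRs, 63 (21.1%, 16.6 to 26.1%) in coding exons, 5 in 5′ UTRs and 1 in an exon of a non-coding transcript. The part of the genome that could hold such a summit was 47.1 Mb, of which introns make up 55.7%, coding exons 38.0%, 3′ UTRs 5.60% and 5′ UTRs 0.395%. Per Mb of each, there were 5.79 peaks in introns (exact Poisson interval 4.91 to 6.79), 3.52 in coding exons (2.70 to 4.50) and 29.6 in 3′ UTRs (23.4 to 36.9). The intervals of the 3 do not overlap, and 3′ UTRs were the densest. In 5′ UTRs the density was 26.9 per Mb with an interval of 8.73 to 62.7, from 5 peaks in C34C12.2, C37C3.9, npp-1, syp-1 and egl-30. The egl-30 peak was named after its value was seen.

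The density was highest close to the end of the host gene. Within 200 bp of the host's 3′ end lay 101 summits, or 33.8% (28.4 to 39.4%), in 6.02% of the available sequence. This is 35.7 peaks per Mb (29.0 to 43.3) against 4.48 (3.87 to 5.14) farther from the end. Along the host gene, 120 summits fell in the last 10% of its length and 11 in the first 10%, where the rule's distance from start sites leaves little room. The 101 are called 3′ end peaks here, and 62 of them lay in a 3′ UTR, 35 in a coding exon, 3 in an intron and 1 in an exon of a non-coding transcript. The other 198 were 149 intron peaks and 49 in exons. Of the 149, 37 lay upstream of the nearest start site where that start belonged to the host itself, as in klp-7, and are called internal start peaks. The share of intron sequence upstream of such a start was not taken, so the count of 37 has no background. These groups were drawn after the positions had been seen.

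**Figure D2:**
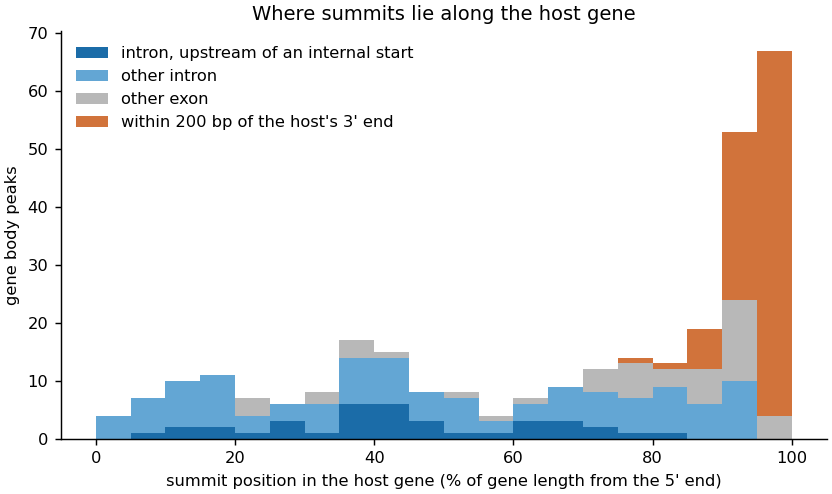
Number of gene body peaks by position of the summit along its host gene, from 0% at the 5′ end to 100% at the 3′ end, in bins of 5%, stacked by group. The last 2 bins hold 120 of the 299 summits, most of them within 200 bp of the 3′ end.

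Start sites were not near for most of the peaks. The median distance to the nearest start was 1282 bp, with a range of 501 to 8172 bp, and 78 summits were more than 2000 bp away. The nearest start belonged to the host gene for 206 peaks, 169 of them downstream of it and 37 upstream. For the other 93, 63 lay downstream of another gene's start and 30 (10.03%) upstream of one. The 30 had a median distance of 840 bp to that start, against 171 bp to the nearest start at promoter peaks. The share of available sequence upstream of another gene's start was not taken. At the limit of the rule, the members with the smallest distance were in mtrf-1L (501 bp, signal 131), zig-7 (502 bp, 103) and in the overlapping genes Y82E9BR.3 and lelo-2 (504 bp, 117). Just outside it, at 498 bp each, lay peaks in suex-1 (94.0), C03D6.1 (51.3) and ser-2 (40.8, with no region in the list of replicate 1).

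The 37 internal start peaks had the highest median signal of the groups, 83.8 (quartiles 57.7 and 135), near the promoter median. Beside klp-7, ptpn-22, ret-1 and hxk-1, the group included ari-1.4, of a family of ubiquitin ligases (579 bp upstream of an internal start), lea-1, a gene linked to desiccation tolerance (2052 bp), and mask-1, which encodes a protein of ankyrin repeats and a KH domain (523 bp). In ptpn-22 the distance was 575 bp, in ret-1 980 bp and in hxk-1 976 bp. Of the 37, 34 had replicate values within a factor of 2, and the median ratio of replicate 1 to replicate 2 was 1.05. The 35 host genes of this group had a median length of 11954 bp, against 4099 bp over all hosts. Their median number of start sites was 3, against 2 over all hosts.

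The gene with the most gene body peaks was skn-1, for a transcription factor of the stress response that also acts in the early embryo. It had 3, and no promoter peak. The strongest, at chrIV:5657093-5657293, had a signal of 203 (116 and 88.7 in replicates 1 and 2) and lay in the first intron 1586 bp upstream of an internal start. The second, in the same intron and 580 bp upstream of an internal start, had 59.9 (27.9 and 28.2 in the replicates). Both had 1 copy of TTSSCGC within 100 bp. The third lay in the 3′ UTR 98 bp from the end of the gene, had 55.0 (40.6 and 17.6) and held no copy. The strongest of the 3 was 127 bp from the start of the non-coding RNA gene T19E7.26.

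Another 8 genes had 2 gene body peaks each. In C34C12.2 they were the 5′ UTR peak of 282 and an intron peak of 204, which differed between replicates (148 and 55.8). In ret-1 the second peak, also upstream of an internal start, had 62.2 (31.6 and 32.3). In lron-13 the second had 45.6 and lay 442 bp from the first. The gene efl-1 itself had 2, in separate introns 836 bp apart, with signals of 60.3 (27.6 and 22.6 in the replicates) and 49.9 (34.9 in replicate 2 and no region in replicate 1), beside a promoter peak of 382. The tagged transgene carries efl-1 sequence, and its part in these values was not tested. The others were mod-5, the serotonin transporter gene, nex-2, an annexin gene, C44E4.5 and acl-14. The last 2 were named after their values were seen.

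Within 100 bp of the summit, TTSSCGC was present in 76 of 299 gene body peaks, or 25.4% (20.6 to 30.7%), against 29.7% over all nuclear peaks. Promoter peaks had it in 31.6% (29.4 to 33.8%), and the difference of gene body minus promoter peaks was −6.14 percentage points (Newcombe interval −11.2 to −0.507). The interval included 0 when the distance limit was 200 bp (−3.55 points) or 1000 bp (−2.67) and among the stronger 1401 nuclear peaks (−8.90). It lay below 0 with either replicate list alone (−8.12 for replicate 1 and −11.9 for replicate 2) and with small RNA sites kept (−9.83). In flanks of equal summed length 400 to 500 bp from the same summits the shares were 10.03% for gene body peaks and 6.60% for promoter peaks. Windows of the same length placed end to end over the whole available sequence held a copy in 6.26%. The share at the gene body summits was above both. A match is a match of letters and not a shown binding site.

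The copies were not spread evenly over the groups. Intron peaks away from 3′ ends had a copy in 56 of 149, or 37.6% (29.8 to 45.9%), against 10.7% in their flanks and 7.67% in windows over introns. At 3′ ends it was 11 of 101, or 10.9% (5.56 to 18.7%), with also 11 of 101 in the flanks (8 peaks had a copy at the summit alone and 8 in the flanks alone) and 3.35% in windows at 3′ ends. The difference of introns minus 3′ ends was 26.7 points (16.1 to 36.0), and 16.6 points (7.45 to 24.3) when summits near small RNA genes were kept. Against promoter peaks the introns were 6.03 points higher, with an interval of −1.66 to 14.3 that includes 0. Internal start peaks had a copy in 12 of 37 (32.4%, 18.0 to 49.8%), other introns in 44 of 112 (39.3%, 30.2 to 49.0%) and other exons in 9 of 49 (18.4%, 8.76 to 32.0%). In the flanks the shares were 16.2% (6.19 to 32.0%), 8.93% (4.36 to 15.8%) and 6.12% (1.28 to 16.9%), in the same order. The intervals of summits and flanks overlapped for internal start peaks and for other exons. Bases marked as repeats in the RefSeq sequence made up a mean of 50.1% of the windows at intron peaks and 23.9% at 3′ ends, against 47.6% and 30.5% over windows of those regions, and their part in the motif shares was not tested.

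**Figure D3:**
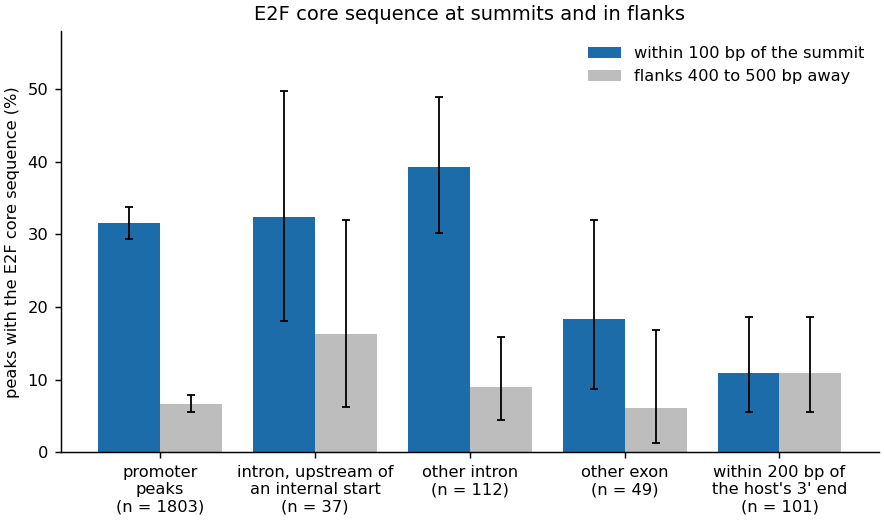
Share of peaks (%) with a copy of TTSSCGC at most 100 bp from the summit (blue) and in flanks 400 to 500 bp away (grey), for promoter peaks and the 4 groups of gene body peaks. Error bars are exact 95% intervals for counting error; other introns reach 39.3% over flanks of 8.93%, and at 3′ ends both bars stand at 10.9%.

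Where a copy was present it was close to the summit. The nearest copy had its centre a median of 24 bp away, within 50 bp in 62 of 76 peaks and within 20 bp in 33. In the windows printed above, the copies in ptpn-22 and vha-11 were 4 and 7 bp from the summit and those in mbk-2 and ari-1.4 were 19 and 18 bp away. Of the 4 forms, TTCCCGC was the most frequent, in 39 of the 76 peaks (51.3%), against 35.5% of promoter peaks that had a copy. TTCGCGC was in 28 (36.8%, 34.4% at promoters), TTGGCGC in 14 (18.4%, 29.7% at promoters) and TTGCCGC in 13 (17.1%, 14.8% at promoters). A single copy was found in 52 peaks and more than 1 in 24. Peaks with a copy had a median signal of 67.7 and those without 56.9, and the 2 strongest, in klp-7 and Y62F5A.9, had none.

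The share with a copy was also taken by class of signal, with no test of a trend. In the top class of nuclear peaks by signal, 34.3% of gene body peaks (19.1 to 52.2%) and 52.8% of promoter peaks (48.5 to 57.0%) had a copy. In the next class the shares were 31.8% and 28.2%, then 22.9% and 23.3%, and in the bottom class 20.9% (13.9 to 29.4%) and 13.4% (10.1 to 17.3%). TTYGAA, where Y is C or T, a sequence like the element that the DREAM subunit LIN-54 recognises, was far more common everywhere. It was within 100 bp of 158 gene body summits (52.8%), against 58.7% over all nuclear peaks, 46.2% in the flanks of the gene body peaks and 53.7% of windows over the whole available sequence. Intron peaks away from 3′ ends had it in 59.1% and 3′ end peaks in 48.5%, against 60.1% and 52.9% of windows over those regions, so these shares were not above those of windows over the same kind of sequence. The difference from promoter peaks was −8.06 points (−14.1 to −2.02), and introns minus 3′ ends came to 10.5 points (−1.98 to 22.7). Both sequences were present in 41 gene body peaks and neither in 106.

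The 3′ end peaks had the neighbourhood of a second gene in common. In 87 of 101 (86.1%, 77.8 to 92.2%) the 3′ end of a gene on the opposite strand, running towards the host, lay within 200 bp of the host's 3′ end. Over all 14389 protein-coding 3′ ends more than 500 bp from every start, 27.5% had such a facing end within the same distance. The 2 shares are over peaks and over gene ends, so they are set side by side without a test. The rule also treats the 2 kinds of end unlike. A summit just past a lone 3′ end can lie between genes and is then left out. Just past a facing end it can lie inside the second gene and is kept. The part of this in the shares was not tested.

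Whether these pairs were bound at their promoters was therefore asked among facing pairs alone. Of 1951 pairs of genes with facing ends, 459 (23.5%) had a promoter peak at either gene. The 84 pairs with a gene body peak at their ends had one in 56 cases, or 66.7% (55.5 to 76.6%), against 403 of 1867 (21.6%, 19.7 to 23.5%) of the pairs without. The difference was 45.1 points (34.3 to 54.4). Both genes had a promoter peak in 17.9% of the pairs with an end peak and in 2.2% of those without. Read the other way, an end peak was found in 12.2% (9.35 to 15.5%) of pairs with a promoter peak at either gene and in 1.88% (1.25 to 2.70%) of pairs with none. Among the 87 peaks, the facing gene had the promoter peak in 49 and the host in 25, and in 28 neither had one. The pairs were not split by chromosome, and the part of chromosome in these shares was not tested.

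The strongest 3′ end peaks were in klp-18, which encodes a kinesin of the oocyte meiotic spindle, and tir-1, a TIR-domain protein of neurons and innate immunity. The klp-18 peak at chrIV:7043518-7043794 had a signal of 246 (114 and 126 in the replicates), lay 30 bp from the end of the gene, and held a copy of TTSSCGC. It had no facing gene, and klp-18 itself had a promoter peak of 1448. The tir-1 peak at chrIII:3869471-3869804 had 244 (155 and 88.0) and faced rpl-3, a ribosomal protein gene whose promoter peak was 2554. Next came ZK418.11 with 188 (108 and 91.6), which faced cpg-2, an eggshell proteoglycan gene with a promoter peak of 1740. The ift-74 peak, of an intraflagellar transport gene, lay in a 3′ UTR but 417 bp from the end, with 233 (126 and 109).

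Several facing genes had strong promoter peaks, and those named here were chosen after their values were seen. The tag-307 peak had 79.9 (21.7 and 56.0 in the replicates) and faced the ribosomal protein gene rpl-35, whose promoter peak was 2011. The lmd-2 peak, the strongest in a coding exon at 163 (86.8 and 76.5), faced rpl-4, whose promoter peak of 42.4 was near the bottom of the list. F31E3.12, with 150 (72.6 and 80.1), faced the translation elongation factor gene eef-1A.1, and C36E8.4, with 137 (79.8 and 59.4), faced the β-tubulin gene tbb-2, which had no promoter peak. The lin-29 peak, of a developmental timing regulator, had 157 with a wide replicate difference (129 and 41.0) and faced hmg-12. Peaks in rib-2 (127) and acbp-6 (129) faced ran-1, of the nuclear transport GTPase, with a promoter peak of 1128, and mex-1, a maternal RNA-binding protein gene, with one of 1577. The hosts also had promoter peaks, of 2293 for rib-2 and 61.2 for acbp-6. The lin-35 end peak, of the Rb-like partner of EFL-1, was weak at 48.4 (32.4 and 14.5) and faced hmg-3. Both lin-35 and hmg-3 had promoter peaks, of 317 and 350.

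The 299 peaks lay in 296 host genes, since some genes held several peaks and 7 peaks lay in overlapping genes. Of the hosts 80 also had a promoter peak, or 27.0% (22.1 to 32.5%), against 10.9% of all protein-coding genes. Among the 17999 genes that could have hosted a gene body peak but did not, it was 10.6%, a difference of 16.4 points (11.6 to 21.7). The share of hosts was 15.2% with a distance limit of 200 bp and 16.7% among the stronger 1401 peaks. Host genes were longer, with a median of 4099 bp against 2190 bp, so the shares were also taken by length. Under 3000 bp they were 34.3% of hosts (25.3 to 44.2%) and 9.47% of other genes, from 3000 to 6000 bp 23.9% (15.4 to 34.1%) and 12.6%, and at 6000 bp or more 22.3% (14.7 to 31.6%) and 13.3%. The intervals of hosts and other genes did not overlap below 6000 bp. At 6000 bp or more they just did, with a lower bound of 14.7% for hosts and an upper bound of 14.8% for the others. No split by chromosome was made, and on X both kinds of peak were sparse, with 1 gene body and 31 promoter peaks. The part of chromosome in these shares was not tested.

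Hosts were counted in 13 lists of genes, of the germ line, the cell cycle and other processes and of somatic tissues. Over all 18295 genes that could host a peak, 1.62% did. In the list for oogenesis and the early embryo 7 of 63 genes were hosts, or 11.1% (4.59 to 21.6%), namely mbk-2, skn-1, par-1, spn-4, cgh-1, daz-1 and par-5. Beside mbk-2 and skn-1 their signals were low. The polarity kinase gene par-1 had 67.5 (33.9 and 26.1 in the replicates) in an intron, and spn-4, for a maternal RNA-binding protein, had 65.2 (56.4 and 36.9) at its 3′ end, with a promoter peak of 974. Of the 63 genes of this list, 31 had a promoter peak. Chromatin regulators had 4 of 50 (set-17, efl-1, lin-35 and hda-2), and mitosis and cell cycle control had 4 of 73 (klp-7, klp-18, klp-19 and cyd-1). The chromokinesin gene klp-19 had 72.4 at its 3′ end (57.3 and 27.0), and the cyclin D gene cyd-1 had 45.6 (27.9 and 20.1) in an intron 2852 bp upstream of an internal start.

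DNA replication, the best known E2F target group, had 1 host of 40, the clamp loader gene rfc-3, with a 3′ end peak of 51.2 (32.4 and 20.4). Its share of 2.50% has an interval of 0.0633 to 13.2%, which includes the background. A promoter peak was present at 30 of the same 40 genes, against 10.9% of all protein-coding genes. Meiotic chromosomes had 1 of 39, the synaptonemal complex gene syp-1 (40.7, with 33.3 in replicate 1 and no region in replicate 2). P granules and small RNA had 2 of 49, the nuclear Argonaute gene hrde-1 (55.8) and pgl-1 (47.8). Ubiquitin and proteasome had 3 of 64, usp-48, ubq-1 and zer-1, at 55.5, 43.2 and 40.1, all in 3′ UTRs. Transcription factors of body patterning had 3 of 66 (skn-1, lin-29 and ceh-8), and cell signalling had 1 of 57, the kinase gene akt-1 (42.6).

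Markers of body muscle, intestine and hypodermis had no host, of 40, 31 and 40 genes, which allows shares of up to 8.81%, 11.2% and 8.81% (exact upper bounds). Neuron markers had 2 of 58, mod-5 (97.1 and 51.3 for its 2 peaks) and tdc-1 (58.3), a tyramine synthesis gene. The 4 somatic lists together gave 2 of 169, or 1.18% (0.144 to 4.21%), near the background of 1.62%.

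Like promoter peaks, gene body peaks were uneven between chromosomes. Promoter peaks ranged from 12.95 to 28.9 per Mb of chromosome on the autosomes and came to 1.75 on X. Per Mb of available sequence there were 6.98 on I, 7.85 on II, 11.2 on III (8.97 to 13.9), 8.21 on IV and 4.25 on V (3.01 to 5.84). On X there was 1 peak in 7.67 Mb, or 0.130 per Mb (0.0033 to 0.726), of 84 nuclear peaks on that chromosome. It lay in an intron of chtl-1, a choline transporter-like gene, 950 bp upstream of an internal start, had a signal of 116 (59.2 and 56.5 in the replicates) and held a copy of TTSSCGC. Among the autosomes, the share of peaks with TTSSCGC was highest on IV, 41.3% (29.0 to 54.4%), and lowest on V, 10.5% (2.94 to 24.8%). On I, II and III it was 22.4%, 25.5% and 21.4%. No background by chromosome was taken for these shares.

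**Figure D4:**
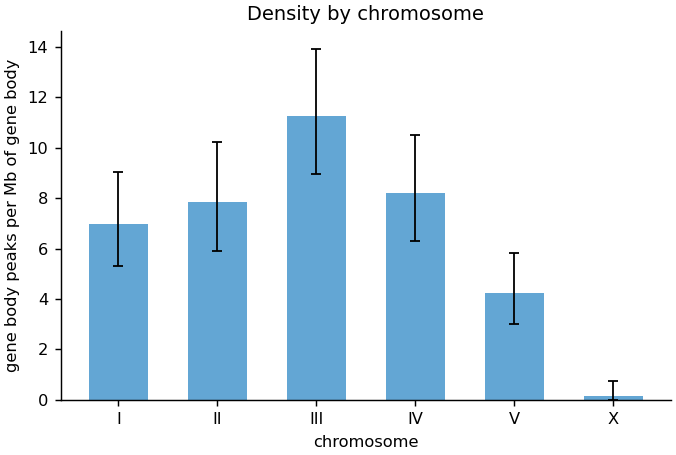
Gene body peaks per Mb of sequence that could hold one, by chromosome, with exact Poisson 95% intervals. Chromosome III is highest at 11.2 per Mb and X lowest at 0.130 per Mb, from 1 peak.

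To see how far the peaks were shared by the replicates, each was looked up among the 2802 strongest nuclear regions of both replicate lists. Of 299, 193 were in both, or 64.5% (58.8 to 70.0%), against 71.5% of all nuclear peaks. The difference from promoter peaks was −10.9 points (−16.8 to −5.35). Within the 4 classes of signal it did not hold. In the top class the shares were 100% of gene body and 99.6% of promoter peaks, then 98.5% and 97.6%, 74.7% and 69.7%, and in the bottom class 27.0% and 18.5%. Another 50 were among the strongest of replicate 1 alone, 43 of replicate 2 alone and 13 of neither.

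Values in both replicate lists were available for 297 peaks. Replicate 1 was higher for 200 and replicate 2 for 97, with a median ratio of 1.27, against 1.20 at promoter peaks. They were within a factor of 2 for 234. Across these 297 regions of the same 2 libraries, Pearson's r of the log2 values was 0.63 and Spearman's rho 0.51, given as a description. The peaks furthest from the line were weak ones. B0353.1 had 8.95 in replicate 1 but 36.5 in replicate 2, and the deadenylase gene ccr-4 had 9.37 and 33.5. In the other direction, the chaperonin gene cct-7 had 37.1 and 4.86, and brap-2 had 37.4 and 8.45. Y46G5A.34, nex-2 and C06E7.4 were also much higher in replicate 2, and Y41D4B.4, znf-236 and bre-4 in replicate 1. The highest joint signal among these 10 was 77.4, in znf-236.

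**Figure D5:**
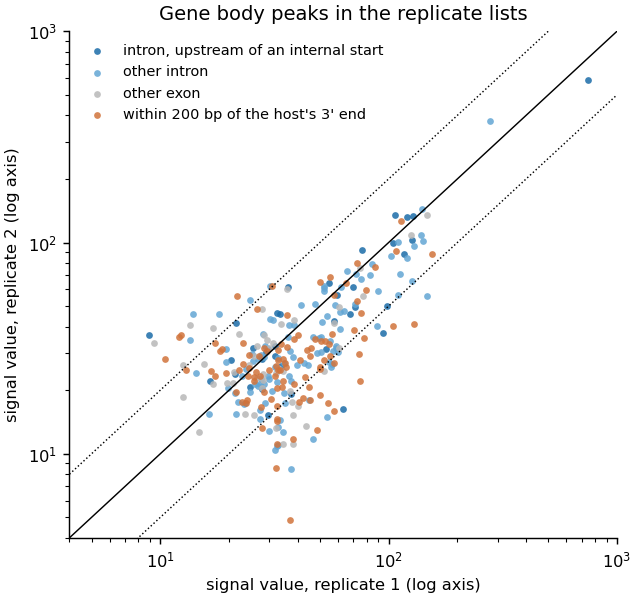
Authors' signal value in replicate 1 (horizontal) and replicate 2 (vertical), both on log axes, for the 297 gene body peaks with a region in both lists, coloured by group. The solid line marks equal values and the dotted lines a factor of 2; 234 peaks lie between them, and the klp-7 and Y62F5A.9 peaks are at the upper right.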

How the data were processed

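EFL-1 ChIP-seq peak lists of 2 biological replicates were analysed. The authors called a narrowPeak list per replicate against a control and a joint list on both replicates, and derived an optimal list with a threshold on the irreproducible discovery rate, per the deposited README texts. Build ce11 was used, and the ce10 lists were not. The sources used here give no aligner, peak caller or threshold. The value called signal that the authors deposited per region was used as given; the deposited −log10 q-value was not used for ranking, since it is one value for all optimal peaks. The deposited summit offset was added to the start of each region. Each replicate list holds 30000 regions, background included. Read counts are not part of these lists, so depth is unknown. The label for the antibody names efl-1 and the description an antibody to GFP; the description is followed.

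Genes came from Ensembl release 115 on WBcel235, the same assembly as ce11, with 29314 start sites of protein-coding transcripts in 19973 nuclear genes, and sequence from the RefSeq genome of that assembly. A replicate's value is its strongest region that overlaps the peak by at least 1 bp. Flanks lay 400 to 500 bp from the summit on both sides. Of the 685 genes in the 13 lists, 674 matched. Members, lists and groups were chosen with earlier results of these data known. Genes named are hosts of the 25 strongest peaks, efl-1, hosts of 3 or more peaks, the 4 strongest per position class and per list, the 5 largest replicate ratios each way and the 3 nearest to the limit on each side; others were chosen after their values were seen. Shares have exact (Clopper-Pearson) 95% intervals, densities exact Poisson ones and differences of shares Newcombe ones. With 1 group no test between conditions was made. Alternatives were other distance limits, the stronger 1401 peaks, single replicate lists, small RNA sites kept, midpoints, other motif windows and overlaps. Python 3.11.15, numpy 2.4.6, pandas 2.3.3, scipy 1.17.1 and matplotlib 3.10.9 were used, and the scripts were tested on simulated data.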

Additional observations from a re-analysis of the deposited data

How the results depend on the processing

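No paired analysis was possible because there is 1 group and no contrast. Leaving out summits within 200 bp rather than 500 bp of starts gave 455 peaks, with 58.5% in introns, 27.7% within 200 bp of 3′ ends, 15.2% of hosts with a promoter peak and a TTSSCGC difference from promoter peaks of −3.55 points, whose interval included 0. A limit of 1000 bp gave 184 peaks and −2.67 points, again including 0. The stronger 1401 nuclear peaks gave 101 peaks, with a median signal of 115, 67.3% in introns, 25.7% at 3′ ends, 32.7% with TTSSCGC, 99.0% in both replicates, 16.7% of hosts with a promoter peak, 6 list hosts and −8.90 points, including 0. With small RNA sites kept, 60.2% were in introns and 27.0% at 3′ ends. A motif window of 50 bp gave 20.1%. Replicate sharing was 54.8% by summits within 100 bp and 45.5% by 50% reciprocal overlap. From single replicate lists (the lower and higher value of the 2) came 362 to 389 peaks, 41.9 to 45.6% in introns, 20.6 to 22.9% with TTSSCGC, 52.7 to 56.4% in both, a median of 26.8 to 33.6, 11.3 to 12.1% upstream of another gene's start, 27.8 to 29.8% of hosts with a promoter peak, 32 to 36 list hosts, 29.3 to 36.7% at 3′ ends, 77.4 to 81.6% of these with a facing gene, and differences of 26.9 to 30.1 points for introns minus 3′ ends and −11.9 to −8.12 for gene body minus promoter. Where a value moved, the cause was not tested. Promoter peaks were taken anew with each distance limit and list. The share of other genes with one was not, so the shares of hosts have no background in these settings. The interval of introns minus 3′ ends stayed above 0 in every alternative run for it (differences of 16.6 to 32.1 points). Signals of single named peaks moved in 50 cases, all with a single replicate list, which was called separately. They stayed the same in 115, where the same joint value was read again and could not change. The lack of read depth and of a second group limits every value to description.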

Other observations

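A few intron peaks, chosen after their values were seen, held 3 or more copies of TTSSCGC. The peak in polg-1, the gene of the mitochondrial DNA polymerase, held 9 copies within 100 bp of its summit at a signal of 46.3 (26.0 and 21.3 in replicates 1 and 2). Y39A3CL.7 held 5 at 41.2 (31.9 and 10.4). Another 6 peaks held 3 copies each, in vha-11 (227), F46B6.6 (101), Y52E8A.3 (86.5), uso-1 (84.5), acdh-11 (44.4) and trpp-1 (42.7). All 8 lay in introns and none was an internal start peak.

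Some gene body summits lay near non-coding genes that the rule does not remove. Within 200 bp of the start of a gene annotated as ncRNA were 12 summits, or 4.01% (2.09 to 6.91%), against 7.6% of all nuclear peaks and 1.84% of the available sequence. As near to a piRNA gene were 6, or 2.01% (0.74 to 4.32%), against 1.11% and 2.31%. The ints-8 peak (159, with 82.8 and 70.0 in the replicates) was 12 bp from the start of rpr-1. The klp-6 peak (42.1) was 112 bp from srpr-2.2, and the klp-7 peak was 66 bp from the piRNA gene 21ur-9572. A stronger optimal summit lay within 1000 bp of 25 gene body summits and within 2000 bp of 67.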
